A study of Mus musculus with 16 samples.

Results

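The nuclear alanine tRNAs with a TGC or a CGC anticodon were described across 16 mouse tRNA sequencing libraries. The members were every row named tRNA-Ala-TGC or tRNA-Ala-CGC with a running number, mitochondrial and tRX rows left out. They made up 14 of the 819 rows of the fibroblast table and 14 of the 821 rows of the heart table, or 14 of 265 and 14 of 267 nuclear tRNA rows. Of these, 7 rows carried TGC (numbers 1, 2, 4, 5, 6, 7 and 8) and 7 carried CGC (numbers 1 to 7), with the same names in both tables. Such rows are isodecoders, tRNAs that share an anticodon and differ elsewhere in the molecule.

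In the cytosol, nuclear-encoded alanine tRNAs are charged by one alanyl-tRNA synthetase and read the 4 GCN codons. The TGC anticodon pairs with GCA and the CGC anticodon with GCG, while the AGC family, whose first anticodon base is edited to inosine, reads the remaining alanine codons. The mitochondrion has a single alanine tRNA of its own, also with a TGC anticodon, transcribed from mitochondrial DNA. That mitochondrial gene is the mutated tRNA gene of this series, and the nuclear isodecoders serve the same amino acid in another compartment.

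Abundance was measured with mim-tRNAseq, a tRNA sequencing method built to read through modified bases, on total RNA that had been oxidised and beta-eliminated. For mouse embryonic fibroblasts (MEFs) there were 8 libraries, 2 cell passages each of 3 lines named Cl_1, Cl_2 and Cl_3 and of 1 line named Ctrl_1. For hearts there were 8 libraries, 4 from mice given AAV9-DdCBE and 4 from mice given AAV9-GFP, and both groups came from the m.5024T mouse model, so the GFP hearts were not wild type. AAV9 is a viral vector that reaches the heart, a DdCBE is a protein that edits cytosine bases in mitochondrial DNA, and GFP is a fluorescent control protein. The AAV9-DdCBE hearts carried the labels 10X (mice 17 and 18), 5X (mouse 25) and 2X (mouse 26), and the AAV9-GFP hearts 5X (mice 5 and 6) and 3X (mice 14 and 19). The labels do not explain Cl, Ctrl or X, do not give the genotype of the MEF lines, and give no age or sex, and tRNA counts hold no cell type markers against which the tissue labels could be checked. The MEF replicates were passages of a line and Ctrl_1 was a single line. The spread in the main MEF fits below is therefore that between passages. A difference of Cl from Ctrl_1 cannot be told apart from a difference between individual lines.

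Libraries held 1473330 to 3454444 counts in the Cl lines, 3275140 and 4375975 in Ctrl_1, 1646074 to 3037178 in the AAV9-DdCBE hearts and 1540287 to 2718768 in the AAV9-GFP hearts. Mitochondrial tRNA took 2.14% to 3.01% of the counts in the Cl lines, 3.74% and 3.41% in Ctrl_1, 38.9% to 59.9% in AAV9-DdCBE hearts and 37.4% to 43.3% in AAV9-GFP hearts. The heart of mouse 17 stood apart with the 59.9%, and some results below are also given with it left out. The mitochondrial alanine tRNA gave 5.22 to 13.8 counts per 1000 nuclear tRNA-Ala-TGC counts in the Cl lines, against 25.0 and 20.8 in Ctrl_1. It gave 177 to 1040 per 1000 in AAV9-DdCBE hearts and 78.4 to 186 in AAV9-GFP hearts, ranges that overlapped.

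Both anticodon totals stayed within narrow ranges across the MEF lines. tRNA-Ala-TGC took 2.03% and 2.14% of nuclear tRNA counts in Cl_1, 2.07% and 2.21% in Cl_2, 1.92% and 2.16% in Cl_3, and 2.28% and 2.19% in Ctrl_1. Library 2 of Cl_2 lay above library 2 of Ctrl_1, so the groups overlapped. tRNA-Ala-CGC took 1.54% and 1.57% in Cl_1, 1.47% and 1.54% in Cl_2, 1.40% and 1.48% in Cl_3, and 1.61% and 1.55% in Ctrl_1, again with overlap. These are bulk libraries, in which a difference in cell make-up and in tRNA per cell cannot be told apart. At this depth counting error was small: the lowest TGC share, 1.92% in library 1 of Cl_3, had a 95% Wilson interval of 1.91% to 1.94%, which covers counting error only and is far narrower than the spread between passages.

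The mean TGC share was 2.09% ± 0.105 in the Cl libraries (SD, n = 6) and 2.23% ± 0.0648 in Ctrl_1 (SD, n = 2). The mean CGC share was 1.498% ± 0.0636 in the Cl libraries (SD, n = 6) and 1.58% ± 0.0382 in Ctrl_1 (SD, n = 2). In exact two-sided permutation tests over 28 splits both differences had p = 0.143, or 0.286 after Benjamini-Hochberg adjustment over the 8 share tests made. The splits took passages of a line as separate units. The SD over Cl libraries mixes spread between lines and between passages. The same comparison of shares within all nuclear tRNA-Ala counts gave 26.5% ± 3.08 in Cl libraries and 28.1% ± 3.57 in Ctrl_1 for TGC (exact p = 0.536, adjusted 0.857). For CGC it gave 19.0% ± 1.76 in Cl libraries and 19.9% ± 2.63 in Ctrl_1 (exact p = 0.643, adjusted 0.857). For libraries 1 and 2 in turn, TGC held 24.7% and 26.6% in Cl_1, 24.5% and 30.4% in Cl_2, and 22.8% and 29.8% in Cl_3. Ctrl_1 had 25.6% and 30.7%. CGC held 18.7% and 19.5% in Cl_1, 17.4% and 21.2% in Cl_2, 16.6% and 20.3% in Cl_3, and 18.0% and 21.8% in Ctrl_1. Library 2 was the higher in every line. Against the Ctrl_1 library of equal number, every Cl library was lower for TGC, and all but library 1 of Cl_1 for CGC. These shares were not tested as pairs.

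**Figure D1:**
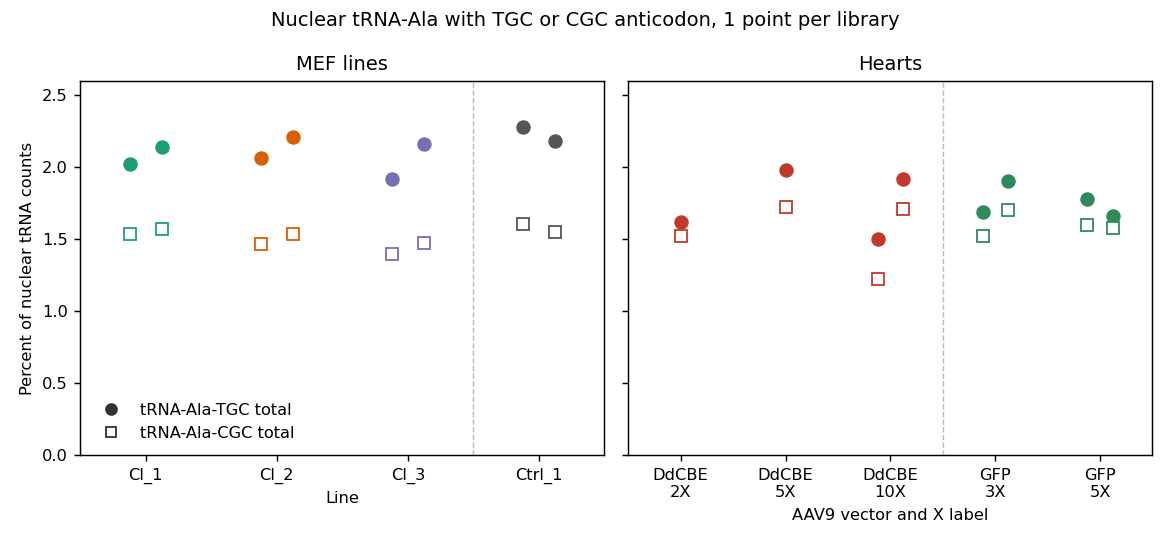
Share of nuclear tRNA counts (percent, y axis) held by the tRNA-Ala-TGC total (filled circles) and the tRNA-Ala-CGC total (open squares) in each MEF library (left) and each heart (right), 1 point per library. TGC lay between 1.92% and 2.21% in the Cl lines and at 2.28% and 2.19% in Ctrl_1. In the hearts the lowest pair of points, 1.501% TGC and 1.22% CGC, was mouse 17.

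The edgeR quasi-likelihood test on counts summed per anticodon, with mitochondrial rows kept, called neither total in any MEF comparison. The TGC total had a log2 change of -0.05 (SE 0.05, 95% interval -0.17 to 0.06, adjusted p = 0.439) in the mean Cl line against Ctrl_1, and the CGC total of -0.03 (SE 0.04, 95% interval -0.12 to 0.06, adjusted p = 0.560). In that comparison 42.9% of the 70 anticodon totals and mitochondrial tRNAs tested were called, in either direction. By line the TGC total had log2 changes of -0.06 (Cl_1), -0.03 (Cl_2) and -0.07 (Cl_3), and the CGC total of 0.02 (Cl_1), -0.04 (Cl_2) and -0.07 (Cl_3). Each of these 6 had an adjusted p of 0.259 to 0.776 in edgeR, where 24.3%, 35.7% and 25.7% of all totals were called in Cl_1, Cl_2 and Cl_3. Fitted on nuclear rows only, the CGC total in Cl_3 had a log2 change of -0.14 and passed (edgeR adjusted p = 0.0494), as did 14 of 48 totals in that fit. The edgeR F test between the Cl lines called 1.43% of totals and neither of these (adjusted p = 0.910 for TGC and 0.498 for CGC).

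The TGC total was carried by 2 isodecoders and the CGC total by another 2. In MEFs tRNA-Ala-TGC-2 and tRNA-Ala-TGC-4 together held 90.0% to 97.4% of the TGC counts in Cl libraries and 95.05% and 94.7% in Ctrl_1. tRNA-Ala-CGC-1 and tRNA-Ala-CGC-2 held at least 99.9% of the CGC counts in every MEF library. The rest were minor. In CPM, counts brought to a common library size with edgeR's TMM factors, TGC-1 lay at 363 to 1734, TGC-6 at 39.7 to 278, TGC-7 at 34.0 to 57.2, TGC-8 at 21.9 to 44.4, TGC-5 at 0.9497 to 8.17 and CGC-3 at 2.85 to 8.12.

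The other members were close to absent. tRNA-Ala-CGC-4 had 3 to 7 counts per MEF library and 0 to 2 per heart. tRNA-Ala-CGC-6 had 0 or 1 count in each MEF library and 0 in every heart, and tRNA-Ala-CGC-7 had 0 or 1 in MEFs and 0 to 2 in hearts. tRNA-Ala-CGC-5 had 0 counts in all 16 libraries, where a count of 0 allows up to 3 counts, or 0.686 to 2.04 CPM in MEFs and 0.988 to 1.95 CPM in hearts. In all, 10 of the 14 members passed the filter on low counts in the MEFs (all 7 TGC rows and CGC-1, CGC-2 and CGC-3), among 201 transcripts. In the hearts 8 of 14 passed, TGC-1, 2, 4, 6, 7 and 8 and CGC-1 and 2, among 180.

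In the mean of the Cl lines against Ctrl_1 4 minor isodecoders were higher and 3 of the 4 abundant ones slightly lower. Of the 10 members tested 4 rose, TGC-5, TGC-6, TGC-7 and CGC-3, where 22.9% of all transcripts were called higher, and 3 fell, TGC-2, TGC-4 and CGC-2, where 25.4% were called lower (edgeR, Benjamini-Hochberg over 201 transcripts). The median log2 change was 0.19 over the 10 members tested and -0.00080 over all 201. Neither TGC-5, with 3 and 4 counts in Ctrl_1, nor CGC-3, which reached the filter's minimum in 1 of the 2 Ctrl_1 libraries, could have passed the filter without Cl libraries, where both are high. The counts of calls therefore describe the 10 members that passed, not all 14, and nothing is read from them.

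tRNA-Ala-TGC-6 had 81.6 and 71.9 CPM in Cl_1, 262 and 278 in Cl_2, 157 and 169 in Cl_3, and 45.1 and 39.7 in Ctrl_1. Every Cl library lay above both Ctrl_1 libraries, and the 3 Cl lines did not overlap one another. The log2 change was 0.86 (SE 0.17, adjusted p = 0.00596) in Cl_1, 2.67 (SE 0.17, adjusted p = 0.000107) in Cl_2 and 1.94 (SE 0.17, adjusted p = 0.000133) in Cl_3 in edgeR. The edgeR F test found a difference between the Cl lines themselves (adjusted p = 0.00113), with the order Cl_2, Cl_3, Cl_1. This held within the TGC family too: TGC-6 made up 0.400% and 0.350% of TGC counts in Cl_1, 1.31% and 1.33% in Cl_2, 0.862% and 0.849% in Cl_3, and 0.192% and 0.181% in Ctrl_1, a ratio that no scaling between libraries can alter. When the 2 passages of a line were added up and each line counted as 1 replicate, the log2 change was 2.01 with an adjusted p of 0.136 in edgeR.

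tRNA-Ala-TGC-5 was rarer and higher in all 3 Cl lines. It had 23 and 11 counts in Cl_1, 25 and 9 in Cl_2, 21 and 25 in Cl_3, and 3 and 4 in Ctrl_1. All Cl libraries lay above Ctrl_1 although the Ctrl_1 libraries were among the deepest of the table. The log2 change was 2.57 in Cl_1, 2.87 in Cl_2 and 2.80 in Cl_3 (edgeR adjusted p of 0.00177, 0.00107 and 0.000859), and the F test between lines had an adjusted p of 0.754. In DESeq2 the Cl_1 call was lost (adjusted p = 0.0511). The row had needed Cl libraries, where it is high, to pass the filter, so these p-values are a description and support nothing. As the Ctrl_1 counts sum to 7, the fold is loosely bounded: 114 counts in the Cl libraries against 7 in Ctrl_1 gave a ratio of rates of 7.01 with an exact 95% interval of 3.29 to 17.8, which covers counting error only.

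tRNA-Ala-CGC-3 had 5.95 and 4.31 CPM in Cl_1, 6.53 and 7.23 in Cl_2, 5.66 and 8.12 in Cl_3, and 3.60 and 2.85 in Ctrl_1, without overlap between the groups. It rose by 0.97 on the log2 scale over the Cl lines (SE 0.26, adjusted p = 0.0165 in edgeR), but DESeq2 gave it an adjusted p of 0.333, the edgeR call was lost without either Ctrl_1 library (adjusted p of 0.0660 and 0.156), and it had needed Cl libraries to pass the filter. tRNA-Ala-TGC-7 had 42.2 to 57.2 CPM in Cl libraries and 34.0 and 37.0 in Ctrl_1, a log2 change of 0.52 (SE 0.15, adjusted p = 0.0250 in edgeR), with an adjusted p of 0.136 in DESeq2. Of 14 alternatives, 9 kept this call of TGC-7. tRNA-Ala-TGC-8 had 29.2 to 44.4 CPM in Cl libraries and 21.9 and 24.9 in Ctrl_1 and was not called (log2 change 0.52, edgeR adjusted p = 0.0634). These 3 rows had no overlap between Cl and Ctrl_1 libraries, and their adjusted p in the F test between Cl lines was 0.575 to 0.733. How many of all 201 transcripts separated Cl from Ctrl_1 in this way was not counted. Separations of single members are therefore descriptions only.

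**Figure D2:**
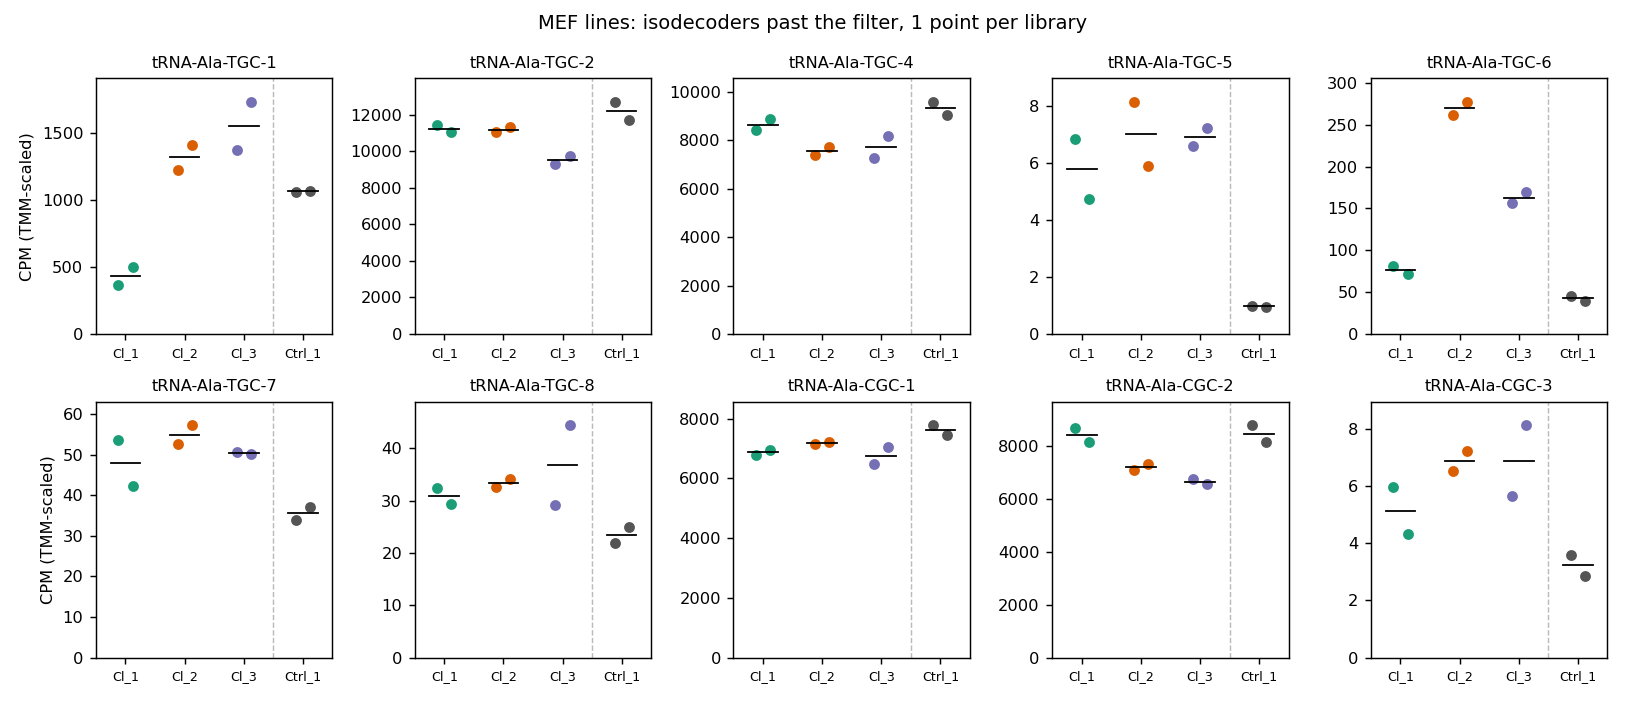
TMM-scaled CPM (y axes, from 0, each with its own range) of the 10 isodecoders that passed the filter in the MEF lines, 1 point per passage and a bar at each line's mean. TGC-6 separates all 4 lines, TGC-1 is at 363 and 502 in Cl_1 against 1060 and 1066 in Ctrl_1, and TGC-5 lies at 0.981 and 0.9497 in Ctrl_1, below every Cl library.

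tRNA-Ala-TGC-1 differed in direction between lines. It had 363 and 502 CPM in Cl_1, 1225 and 1412 in Cl_2, 1373 and 1734 in Cl_3, and 1060 and 1066 in Ctrl_1. Cl_1 lay below Ctrl_1, and Cl_2 and Cl_3 lay above it. It fell by 1.30 on the log2 scale in Cl_1 (SE 0.19, adjusted p = 0.00178 in edgeR) and rose by 0.55 in Cl_3 (SE 0.18, adjusted p = 0.0379 in edgeR). In Cl_2 the log2 change was 0.31 (adjusted p = 0.218) and in the mean of the lines -0.15 (adjusted p = 0.456), both in edgeR. The difference between the Cl lines was itself called (edgeR F test, adjusted p = 0.00135). Within the TGC family TGC-1 held 1.78% and 2.44% in Cl_1, 6.11% and 6.78% in Cl_2, 7.56% and 8.69% in Cl_3, and 4.52% and 4.86% in Ctrl_1. The Cl_3 call was lost without library 2 of Cl_3 (edgeR adjusted p = 0.189), library 1 or 2 of Ctrl_1 (0.127 and 0.0885) or library 2 of Cl_2 (0.0541), and in the edgeR fit on nuclear rows only (0.0557).

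The abundant isodecoders differed by small amounts. tRNA-Ala-TGC-2 had 9278 to 11445 CPM in Cl libraries and 12713 and 11706 in Ctrl_1. tRNA-Ala-TGC-4 had 7275 to 8890 CPM in Cl libraries and 9596 and 9061 in Ctrl_1. Neither overlapped between the groups on this TMM scale. The log2 changes were only -0.20 (SE 0.05, adjusted p = 0.0145) for TGC-2 and -0.23 (SE 0.06, adjusted p = 0.0176) for TGC-4 in edgeR. tRNA-Ala-CGC-2 had 6549 to 8678 CPM in Cl libraries and 8768 and 8132 in Ctrl_1, with overlap, and a log2 change of -0.20 (SE 0.05, adjusted p = 0.0180 in edgeR). These 3 rows passed the test. tRNA-Ala-CGC-1 had 6467 to 7201 CPM in Cl libraries and 7773 and 7435 in Ctrl_1, without overlap on this scale. It was not called (-0.13, SE 0.05, edgeR adjusted p = 0.0694). As shares of nuclear tRNA counts both anticodon totals, which these rows mostly make up, did overlap between the groups.

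These small falls were easily lost: of 14 alternatives, 8 kept the call of TGC-2, 10 that of TGC-4 and 6 that of CGC-2. Leaving out library 1 of Ctrl_1 or library 1 of Cl_2 ended all 3 calls, either Cl_3 library those of TGC-2 and CGC-2, and library 2 of Cl_1 that of CGC-2 (edgeR adjusted p up to 0.157). With the passages of a line summed the edgeR adjusted p was 0.583 for TGC-2, 0.491 for TGC-4 and 0.650 for CGC-2, and without a filter CGC-2 had 0.0686. Scaling by library totals in place of TMM moved the median of all transcripts by about 0.1 (to 0.10 from -0.00080 for the mean Cl line). Under it TGC-2, TGC-4 and CGC-2 had log2 changes of -0.10, -0.12 and -0.09 and were not called (edgeR adjusted p of 0.131, 0.181 and 0.132). Relative to the median of all transcripts the 3 changes were nearly the same under 4 scalings, -0.26 to -0.19 for TGC-2, -0.29 to -0.21 for TGC-4 and -0.26 to -0.18 for CGC-2. A change of scaling moves all transcripts by nearly the same amount, so this likeness is built in and lends the falls no support. Library totals also turned the split of calls over all transcripts to 61 higher and 35 lower, from 46 higher and 51 lower.

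Line by line, 3 of the 10 members were called in Cl_1: TGC-5 and TGC-6 were higher, where 14.9% of transcripts were called higher, and TGC-1 was lower, where 18.9% were called lower. In Cl_2 the calls numbered 6, with TGC-5, TGC-6, TGC-7 and CGC-3 higher (25.9% of transcripts higher) and TGC-4 and CGC-2 lower (20.4% lower). Of 13 alternatives, 5 kept the Cl_2 call of CGC-2, 8 those of TGC-7 and CGC-3, and 10 that of TGC-4. All 4 were lost without library 1 of Cl_2 or of Ctrl_1, and TGC-7, CGC-3 and CGC-2 also without library 2 of either line. CGC-2 was lost without either Cl_3 library too (edgeR adjusted p up to 0.195 in these losses). TGC-4 and CGC-2 were lost under library totals (edgeR adjusted p of 0.112 and 0.117), and TGC-7 and CGC-3 in DESeq2 (0.165 and 0.414). In Cl_3 they numbered 7, with TGC-1, TGC-5, TGC-6 and CGC-3 higher (26.4% higher) and TGC-2, TGC-4 and CGC-2 lower (24.4% lower). There TGC-4 and CGC-3 kept the call in 9 of 13 alternatives: TGC-4 lost it under library totals and without library 1 of Cl_3, Ctrl_1 or Cl_2, and CGC-3 in DESeq2 and without library 2 of Cl_3 or either Ctrl_1 library (adjusted p of 0.0538 to 0.339). CGC-2 lost it without library 2 of Cl_3 (edgeR adjusted p = 0.0625). The F test between the Cl lines called 4 of 10 members against 24.4% of all transcripts: TGC-1, TGC-6, CGC-2 (adjusted p = 0.0209) and TGC-2 (adjusted p = 0.0457). The calls of TGC-1 and TGC-6 held in all 13 alternatives, while that of TGC-2 held in 3 and was lost with each library left out in turn (edgeR adjusted p of 0.0586 to 0.263). That of CGC-2 held in 8 and was lost without either Cl_3 library, library 1 of Cl_1, library 1 of Cl_2 or library 2 of Ctrl_1 (edgeR adjusted p of 0.0539 to 0.106). CGC-2 had 8678 and 8147 CPM in Cl_1, 7094 and 7303 in Cl_2, and 6734 and 6549 in Cl_3, and its log2 change against Ctrl_1 was -0.0064 in Cl_1 (edgeR, 95% interval -0.16 to 0.15).

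**Figure D3:**
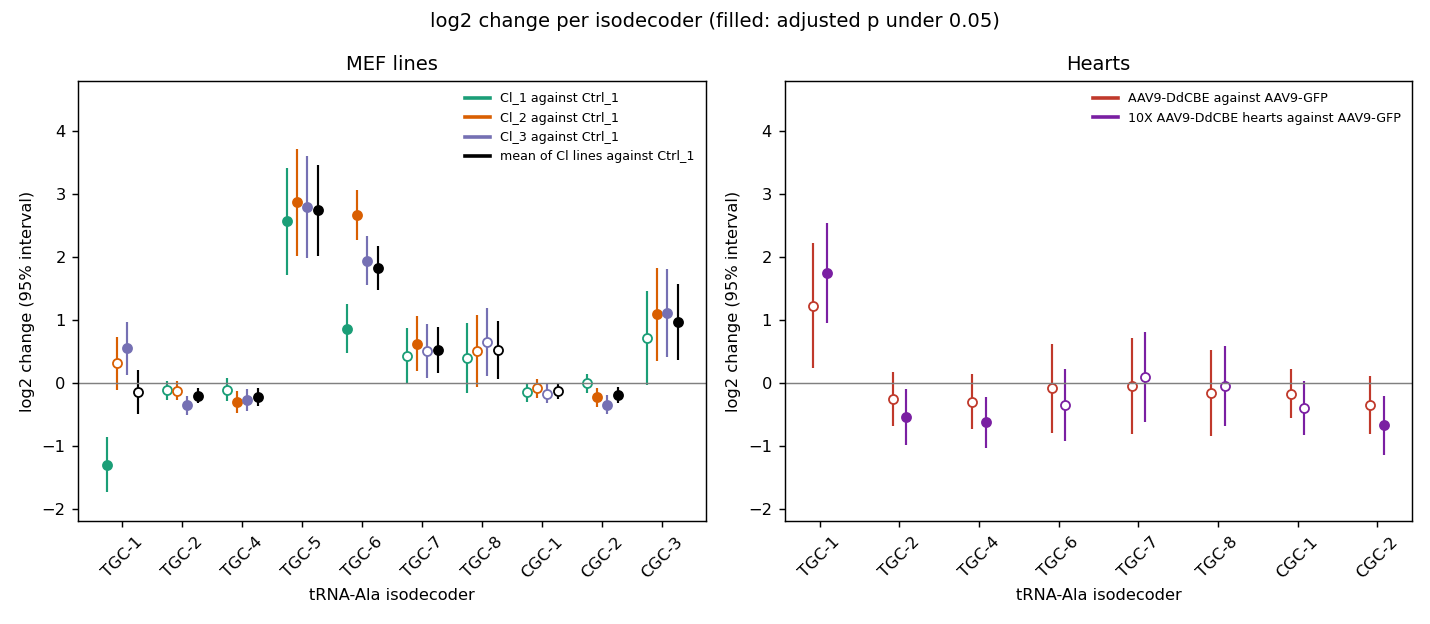
Log2 change per isodecoder (points, y axis) with its 95% interval (lines) for the MEF comparisons (left) and the heart comparisons (right), filled where the edgeR adjusted p was under 0.05. In the MEFs TGC-5 and TGC-6 stand highest, at 2.74 and 1.83 for the mean Cl line, and TGC-1 changes sign between Cl_1 (-1.30) and Cl_3 (0.55). In the hearts TGC-1 stands highest, at 1.75 in the 10X hearts.

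Set beside other lists, the members were not alone in changing. Of the 9 tRNA-Ala-AGC transcripts tested, the remaining cytosolic alanine tRNAs, 1 rose and 2 fell over the mean Cl line (median log2 change -0.02). Of 41 transcripts with T or C at the first anticodon position in the other four-codon boxes, which read codons ending in A or G, 15 rose and 8 fell (median -0.02). In the hearts neither list had a call in the comparison of 4 against 4, with 4 of 8 AGC transcripts (median 0.85) and 7 of 37 of the other boxes (median -0.20) at an unadjusted p under 0.05 in edgeR. Differences between these lists and the members were not tested. Rows named tRX-Ala-TGC or tRX-Ala-CGC, 7 in each table, had 1 count in all MEF libraries together and 0 in the hearts.

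In the hearts neither anticodon total was called. tRNA-Ala-TGC took 1.501%, 1.92%, 1.98% and 1.62% of nuclear tRNA counts in AAV9-DdCBE mice 17, 18, 25 and 26, against 1.66%, 1.78%, 1.91% and 1.69% in AAV9-GFP mice 5, 6, 14 and 19. tRNA-Ala-CGC took 1.22%, 1.71%, 1.72% and 1.52% in the AAV9-DdCBE mice in that order, and 1.58%, 1.60%, 1.71% and 1.52% in the AAV9-GFP mice. The ranges overlapped for both, and mouse 17 was the lowest of the 8 for each. Mean shares were 1.76% ± 0.233 in AAV9-DdCBE and 1.76% ± 0.111 in AAV9-GFP hearts for TGC (SD, n = 4 each, exact p = 1.0, adjusted 1.0). They were 1.54% ± 0.234 in AAV9-DdCBE and 1.60% ± 0.0762 in AAV9-GFP hearts for CGC (SD, n = 4 each, exact p = 0.771, adjusted 0.882).

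On summed counts the TGC total had a log2 change of -0.03 (SE 0.10, 95% interval -0.26 to 0.19, edgeR adjusted p = 0.955) and the CGC total of -0.08 (SE 0.11, 95% interval -0.35 to 0.18, edgeR adjusted p = 0.934). The edgeR test called 0% of the 70 totals, with 3 at an unadjusted p under 0.05, and DESeq2 called 2, neither of them these. In the 10X hearts against AAV9-GFP the log2 change was -0.10 for TGC (SE 0.11, edgeR adjusted p = 0.675) and -0.19 for CGC (SE 0.14, edgeR adjusted p = 0.473), again with 0% of totals called, 15 at an unadjusted p under 0.05, and 13 called by DESeq2. Without mouse 17 all 4 of these signs turned, to between 0.03 and 0.07, and none was called. Without mouse 18 the CGC total of the remaining 10X heart had a log2 change of -0.45 and an edgeR adjusted p of 0.0346. That arm is mouse 17 alone, assumed to vary like the other hearts, and 15 of 70 totals were called in the same fit.

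Within nuclear tRNA-Ala the picture differed. TGC made up 21.9%, 23.5%, 24.2% and 22.9% of nuclear tRNA-Ala counts in AAV9-DdCBE mice 17, 18, 25 and 26, against 24.3%, 30.98%, 30.5% and 30.3% in AAV9-GFP mice 5, 6, 14 and 19. CGC made up 17.8%, 21.0%, 21.0% and 21.5% in the AAV9-DdCBE mice, against 23.2%, 27.8%, 27.3% and 27.3% in the AAV9-GFP mice. All 4 AAV9-DdCBE hearts lay below all 4 AAV9-GFP hearts for both, narrowly so for TGC because of mouse 5. The differences of means were -5.92 and -6.08 percentage points, each with an exact two-sided permutation p of 0.0286, the smallest that 4 against 4 allows, and 0.114 after adjustment over the 8 share tests, which misses the threshold. Leaving out 1 heart in turn, mouse 17 among them, gave differences of -7.48 to -5.27 points for TGC and -7.16 to -5.25 for CGC. The adjusted permutation p was then 0.114 to 0.229 for both. The remaining part of nuclear tRNA-Ala is the AGC total, whose own log2 change was 0.61 (SE 0.16, edgeR adjusted p = 0.340).

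No member passed in the comparison of all 4 AAV9-DdCBE with all 4 AAV9-GFP hearts. The edgeR test called 0 of 8 members, where 0% of the 180 transcripts were called higher and 0% lower. At an unadjusted p under 0.05 there were 35 transcripts in edgeR, among them 1 member, TGC-1, and DESeq2 called 27 transcripts, again with TGC-1 as the only member (adjusted p = 0.0401). The other 7 members had log2 changes of -0.35 to -0.04 and edgeR adjusted p of 0.323 to 0.923, and the median of all 180 transcripts was -0.10.

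tRNA-Ala-TGC-1 had 676, 787, 319 and 269 CPM in AAV9-DdCBE mice 17, 18, 25 and 26, against 142, 188, 367 and 177 in AAV9-GFP mice 5, 6, 14 and 19. The 10X hearts of mice 17 and 18 were the highest, and the 5X and 2X hearts lay between the AAV9-GFP values, so the treatment groups overlapped. The log2 change of 4 against 4 was 1.23 (SE 0.45, 95% interval 0.23 to 2.23, edgeR adjusted p = 0.139). As a share of the TGC family it was 10.6%, 8.36%, 2.81% and 2.68% in the same AAV9-DdCBE mice, and 1.34%, 1.68%, 3.38% and 1.69% in the AAV9-GFP mice. In the same order the mitochondrial alanine tRNA gave 1040, 459, 299 and 177 counts per 1000 nuclear TGC counts in AAV9-DdCBE hearts, and 154, 186, 78.4 and 185 in AAV9-GFP hearts.

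A split of the AAV9-DdCBE hearts by X label was made after the comparison of 4 against 4 was known, so its calls are a description and support nothing. In the 10X hearts against AAV9-GFP TGC-1 rose by 1.75 on the log2 scale (SE 0.35, adjusted p = 0.00449 in edgeR), where 23.9% of transcripts were called higher. TGC-2, TGC-4 and CGC-2 fell by 0.54, 0.63 and 0.68 (edgeR adjusted p of 0.0451, 0.0208 and 0.0259), where 27.8% were called lower. The median of all transcripts was itself -0.23 here. Leaving out 1 heart in turn, mouse 17 among them, gave log2 changes of -0.89 to -0.26 for TGC-2, -0.90 to -0.39 for TGC-4 and -1.08 to -0.36 for CGC-2. Relative to the median, a measure that a change of scaling leaves nearly unaltered by construction, the 3 falls were -0.32 to -0.24 for TGC-2, -0.40 to -0.32 for TGC-4 and -0.45 to -0.38 for CGC-2 under 4 scalings. In absolute terms they were not called by every scaling: DESeq2, library totals and nuclear rows alone each called only TGC-1 among the members. Those settings also turned the split of all calls, to 52 higher and 23 lower in DESeq2 from 43 higher and 50 lower. Without mouse 17 the TGC-1 log2 change was 1.85 and its edgeR adjusted p 0.0513, with mouse 18 then alone and assumed to vary like the other hearts.

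**Figure D4:**
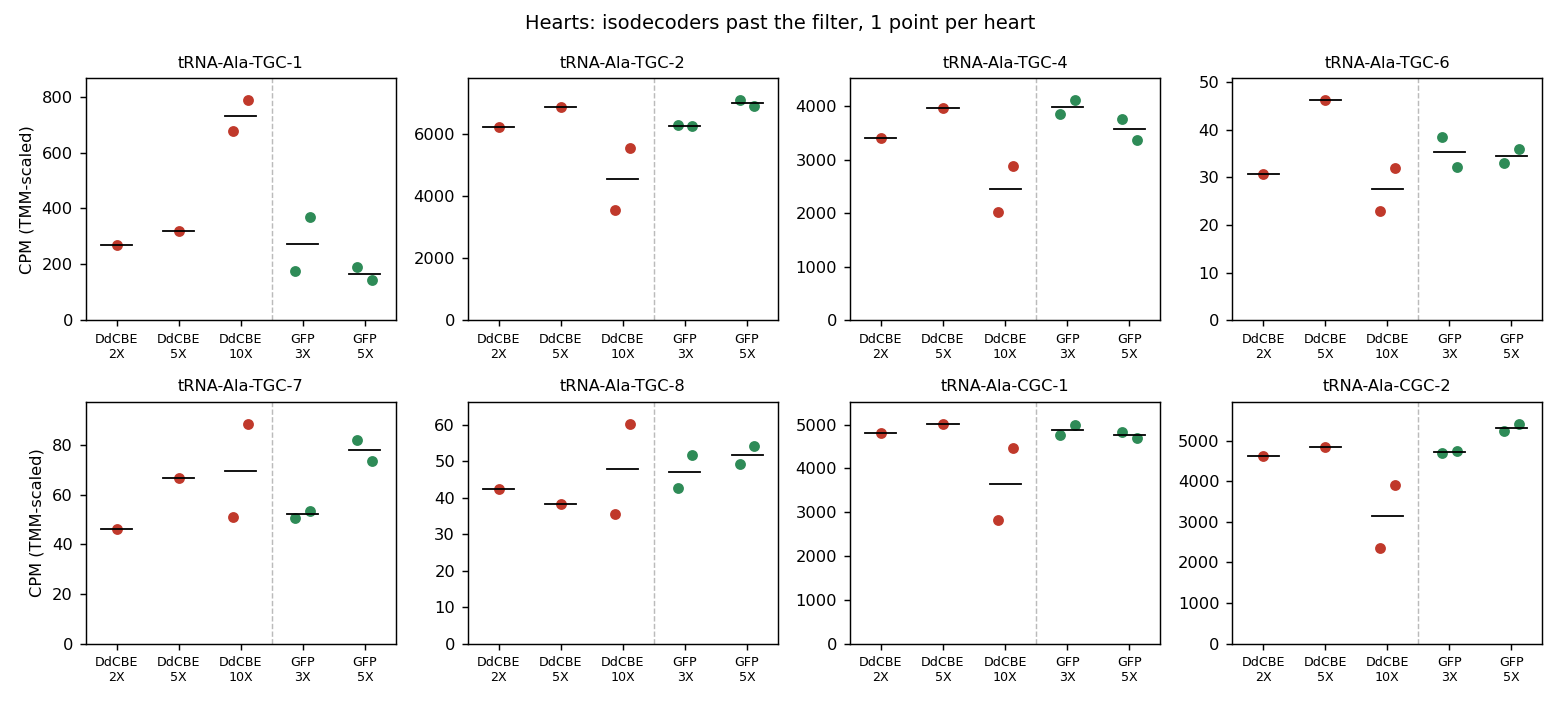
TMM-scaled CPM (y axes, from 0, each with its own range) of the 8 isodecoders that passed the filter in the hearts, 1 point per heart and a bar at each mean, by vector and X label. TGC-1 lies at 676 and 787 in the 10X AAV9-DdCBE hearts against 142 to 367 in the AAV9-GFP hearts. TGC-2, TGC-4, CGC-1 and CGC-2 are lowest in mouse 17, the lower of the 10X points.

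In TMM-scaled CPM the abundant members were lowest in the 10X hearts. TGC-2 had 3561, 5561, 6895 and 6227 CPM in AAV9-DdCBE mice 17, 18, 25 and 26, and 6260 to 7096 in AAV9-GFP hearts. TGC-4 had 2018, 2877, 3967 and 3412 CPM in the AAV9-DdCBE mice, and 3374 to 4112 in AAV9-GFP hearts. In both rows mouse 17 was the lowest of all hearts and mouse 18 the next. CGC-1 had 2814, 4470, 5010 and 4799 CPM in the AAV9-DdCBE mice, and 4688 to 4981 in AAV9-GFP hearts. CGC-2 had 2365, 3918, 4834 and 4623 CPM in the AAV9-DdCBE mice, and 4686 to 5405 in AAV9-GFP hearts. For each of the 4 rows both 10X hearts lay below all AAV9-GFP hearts on this scale. How many of all 180 transcripts did so was not counted, and their median log2 change in the 10X hearts was itself -0.23. This separation is therefore a description only. The 5X and 2X hearts lay within or just outside the AAV9-GFP range. As shares of nuclear tRNA counts both anticodon totals, which these rows mostly make up, were low in mouse 17 but not in mouse 18. Mouse 18 had 1.918% TGC and 1.711% CGC, against 1.66% to 1.906% and 1.52% to 1.706% in AAV9-GFP hearts. The part of mouse 17's high mitochondrial share in these values was not tested.

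The minor members in hearts showed no separation. TGC-6 had 23.0 to 46.2 CPM in AAV9-DdCBE and 32.2 to 38.6 in AAV9-GFP hearts, TGC-7 had 46.3 to 88.3 and 50.7 to 81.8 in the same groups, and TGC-8 had 35.5 to 60.2 and 42.6 to 54.1. TGC-5, which rose in the MEF lines, had 1 to 7 counts in AAV9-DdCBE hearts and 0 to 4 in AAV9-GFP hearts, and CGC-3 had 1 to 6 and 2 to 3, so both were too few to test. The ratio of CGC-1 to CGC-2 was 1.19, 1.14, 1.04 and 1.04 in AAV9-DdCBE mice 17, 18, 25 and 26, and 0.867, 0.923, 1.05 and 1.02 in AAV9-GFP mice 5, 6, 14 and 19, with overlap.

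**Figure D5:**
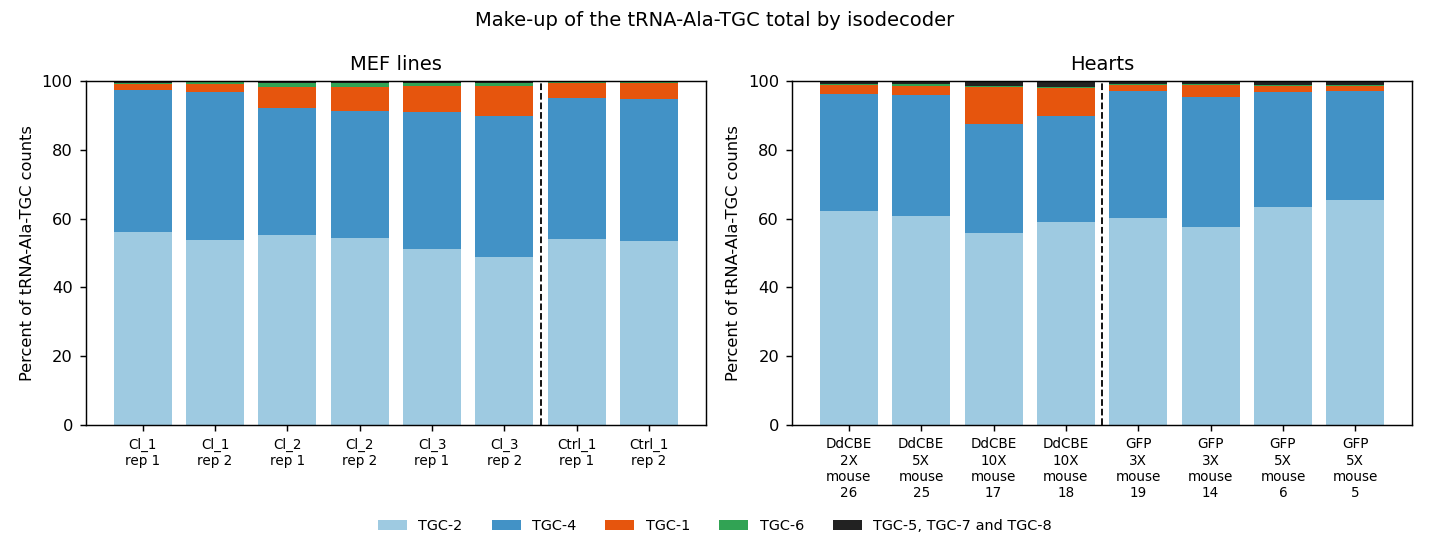
Make-up of the tRNA-Ala-TGC total (stacked bars, percent of TGC counts, y axis from 0 to 100) by isodecoder in each MEF library (left) and each heart (right). TGC-2 and TGC-4 hold 87.6% or more of every bar. TGC-1 is thinnest in Cl_1 among the MEFs (1.78% and 2.44%) and thickest in the 10X hearts (10.6% and 8.36%).

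TGC outweighed CGC in both tables, which were not normalized together: the ratio of TGC to CGC counts was 1.32 to 1.47 in Cl libraries and 1.42 and 1.41 in Ctrl_1, and 1.06 to 1.23 in AAV9-DdCBE and 1.05 to 1.117 in AAV9-GFP hearts. Within TGC the split between the main isodecoders also differed by table, with 1.19 to 1.49 TGC-2 counts per TGC-4 count in MEFs and 1.52 to 2.05 in hearts. This difference between fibroblasts and hearts was not tested.

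The anticodon totals whose levels ran closest to these across libraries were found as the smallest root mean square difference of log2 CPM, each total centred on its own mean over 8 libraries, among 47 other nuclear totals. In MEFs the nearest to TGC were tRNA-Ala-CGC (0.0446), tRNA-Gly-CCC (0.0575) and tRNA-Thr-TGT (0.0656), against a median of 0.131 over all 47. The nearest to CGC in MEFs were tRNA-Thr-TGT (0.0429), tRNA-Ala-TGC (0.0446) and tRNA-iMet-CAT (0.0499), against a median of 0.123. In hearts the nearest to TGC were tRNA-Ile-AAT (0.0607), tRNA-Ala-CGC (0.0648) and tRNA-Leu-TAG (0.0743), against a median of 0.139. The nearest to CGC in hearts were tRNA-Ala-TGC (0.0648), tRNA-Arg-TCT (0.0680) and tRNA-Lys-TTT (0.0953), against a median of 0.156. TGC and CGC were among each other's 3 nearest in both tables. The SD of the log2 level over 8 libraries was 0.05 for both in the MEFs, and 0.13 for TGC and 0.17 for CGC in the hearts, and all points of a table share libraries and depth.

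RefSeq's GRCm38.p6 annotation served here for gene names and neighbours. In it 11 mouse genes are alanine tRNA genes with the TGC anticodon and 9 with CGC, and each is 72 bases long. The nearest alanine tRNA gene was one of the other of these 2 anticodons for 6 of the 11 and for 5 of the 9. Chromosome X holds 7 of the 11 TGC and 5 of the 9 CGC genes. The row names of the tables could not be paired with these gene names, so no isodecoder was given a locus or a sequence.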

How the data were processed

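The deposited files hold raw counts per tRNA transcript, 1 table for MEFs and 1 for hearts, and were not normalized by the authors. Per the labels' protocols, libraries followed the mim-tRNAseq workflow, and per the submitters' processing notes cutadapt 3.5 and mm39 were used. Which aligner and counter were run is not given in the sources used here, nor how reads matching several near-identical tRNAs were assigned, so the levels of single isodecoders are uncertain where reads could be split between them. A sum per anticodon does not depend on such a split within it.

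The tests ran in edgeR 4.0.16 under R 4.3.3 on these counts (TMM, filterByExpr by group with a minimum count of 10 and total of 15, quasi-likelihood test), per transcript and per anticodon sum, each table in 1 fit, with Benjamini-Hochberg adjustment over all rows tested and a threshold of 0.05. Anticodon sums left tRX rows out and kept mitochondrial tRNAs as rows. DESeq2 1.42.0 was an alternative, and shares were compared by exact permutation in Python 3.11.15. Every member is named, other anticodons by smallest root mean square difference with a pseudocount of 0.5. The members, lists and the 10X split were chosen with earlier results of these data known. The pipeline was tested on simulated data. No library was a copy of another: in all 16 pairs within a group the chi-square divided by its degrees of freedom was 98.2 to 1889. Alternatives were DESeq2, library totals, nuclear rows only, no filter, a replicate block, summed lines, the 5X hearts alone, other denominators and each library left out; a filter by X label was added after the data were seen. Editing rates and tRNA charging were not analysed here.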

Additional observations from a re-analysis of the deposited data

Results flagged for a closer look

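In the hearts 3 shares, from 2 mice, stood apart from the rest of their group by Dixon's test, which chance alone meets in about 1 of 20 groups, and 24 groups were tested. tRNA-Ala-CGC made up 17.8% of nuclear tRNA-Ala counts in AAV9-DdCBE mouse 17, against 21.0% to 21.5% in the other AAV9-DdCBE hearts, and this heart also had the highest mitochondrial share, 59.9%. AAV9-GFP mouse 5 was the lowest of its group for TGC, at 24.3% of nuclear tRNA-Ala counts against 30.3% or more, and for CGC, at 23.2% against 27.3% or more.

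The changes of the 3 Cl lines against Ctrl_1 differed from one another for 4 members in the edgeR F test: tRNA-Ala-TGC-6 (adjusted p = 0.00113), tRNA-Ala-TGC-1 (adjusted p = 0.00135), tRNA-Ala-CGC-2 (adjusted p = 0.0209) and tRNA-Ala-TGC-2 (adjusted p = 0.0457). For TGC-6 the lines differed in size, with log2 changes of 0.86 in Cl_1, 2.67 in Cl_2 and 1.94 in Cl_3. For TGC-1 they differed in sign, with -1.30 in Cl_1, 0.31 in Cl_2 and 0.55 in Cl_3. The calls of TGC-6 and TGC-1 held in all 13 alternatives. That of CGC-2 held in 8, while that of TGC-2 held in 3 and was lost whichever library was left out.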

How the results depend on the processing

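TGC-5 had needed Cl libraries to pass the filter, so its calls are a description and support nothing. The calls of TGC-5 and TGC-6 in the mean Cl line held with each library left out and with DESeq2, library totals, nuclear rows only, no filter and the replicate block. With the libraries of a line summed, 1 member was called there, TGC-5 (edgeR adjusted p = 0.0168). Leaving out 1 library at a time gave 2 to 7 called members in the mean Cl line, 3 to 4 in Cl_1, 2 to 6 in Cl_2, 4 to 8 in Cl_3 and 2 to 3 between the Cl lines, 0 to 1 in AAV9-DdCBE hearts and 0 to 5 in 10X hearts. The low end was reached without Ctrl_1 library 1 in the mean Cl line, Cl_2 and Cl_3, also without library 1 of Cl_2 in Cl_2 and library 2 of Cl_3 in Cl_3, and without mouse 17 in the 10X hearts. The number of all transcripts called also changed from fit to fit, so these counts of members are descriptions only and nothing is read from them. In the 10X hearts 1 member was called under DESeq2, library totals, nuclear rows only, no filter and the filter by X label. In AAV9-DdCBE against AAV9-GFP hearts 1 member, TGC-1, was called under DESeq2. In the 5X hearts alone 1 member, TGC-1, was called too, along with 46 of all 184 transcripts, but that arm is 1 AAV9-DdCBE heart, assumed to vary like the 2 AAV9-GFP hearts. The call split over all transcripts also turned in the 10X hearts under library totals (48 higher, 9 lower), nuclear rows (49 and 18), no filter (61 and 11) and the filter by X label (55 and 12), in the mean Cl line without a filter (52 and 49, against 46 and 51), in Cl_1 under library totals (35 and 33, against 30 and 38) and in Cl_3 in nuclear rows (46 and 49, against 53 and 49). It leaned further to higher calls under library totals in Cl_2 (54 and 25, against 52 and 41) and in Cl_3 (70 and 30, against 53 and 49).

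The CGC total in Cl_1 had a log2 change of -0.0072 under library totals and -0.045 in nuclear rows, and in Cl_3 one of -0.14 in nuclear rows (edgeR adjusted p = 0.0494). Signs also turned, for changes that were not called, as follows. TGC-8 in 10X hearts had 0.14 (DESeq2), 0.073 (library totals), 0.21 (nuclear rows), 0.17 (no filter) and 0.15 (filter by X label). In AAV9-DdCBE hearts TGC-6 had 0.0040, 0.016, 0.027 and 0.013 and TGC-7 had 0.070, 0.064, 0.10 and 0.083 under DESeq2, library totals, nuclear rows and no filter. In the 5X hearts alone TGC-6 had 0.42, TGC-4 had 0.15 and CGC-1 had 0.070. Under library totals CGC-2 had 0.057 in Cl_1 and CGC-1 had 0.020 in Cl_2, and with lines summed TGC-1 had 0.028. The cause of these changes was not tested.

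With 1 library left out, log2 changes ranged from -0.45 to 0.034 (CGC total) and -0.28 to 0.066 (TGC total) in 10X hearts, from -0.14 to 0.044 (CGC total) and -0.098 to 0.066 (TGC total) in AAV9-DdCBE hearts, and from -0.043 to 0.034 for the CGC total in Cl_1. The ranges were -0.075 to 0.082 for CGC-2 in Cl_1, -0.35 to 0.44 for TGC-7 and -0.46 to 0.29 for TGC-8 in 10X hearts, and -0.17 to 0.052 for TGC-6, -0.25 to 0.20 for TGC-7 and -0.35 to 0.030 for TGC-8 in AAV9-DdCBE hearts. Differences of shares ranged, in percentage points, from -4.18 to 0.869 (TGC) and -2.80 to 0.914 (CGC) of nuclear tRNA-Ala in MEFs, and from -0.0807 to 0.0805 (TGC) and -0.119 to 0.0489 (CGC) of nuclear counts in hearts. Differences between libraries 1 and 2 of a line, over all 201 transcripts, correlated by 0.07 to 0.25 between lines. The numbers were therefore not taken as pairs. Within nuclear tRNA-Ala, though, library 2 held the higher TGC and CGC share in every line. With the replicate block 7, 3, 6, 8 and 4 members were called in the mean Cl line, Cl_1, Cl_2, Cl_3 and between the Cl lines. Of all 201 transcripts 105, 77, 92, 106 and 56 were called in the same fits. Few libraries per group and 1 Ctrl_1 line limit all results, and depth limits TGC-5 and CGC-3.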

Other observations

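The transcripts whose levels ran closest to tRNA-Ala-TGC-1 were looked up after its values were seen. In the MEFs they were tRNA-Val-CAC-1 and tRNA-Met-CAT-4, at root mean square differences of centred log2 CPM of 0.127 and 0.137 over 8 libraries, against a median of 0.770 over 174 other transcripts. Against Ctrl_1, tRNA-Val-CAC-1 had log2 changes of -1.06 (Cl_1), 0.28 (Cl_2) and 0.66 (Cl_3). Those of tRNA-Met-CAT-4 were -1.04 (Cl_1), 0.29 (Cl_2) and 0.77 (Cl_3). The third was tRNA-Ala-AGC-3, at 0.290.

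In the hearts tRNA-Ala-AGC-3 was the closest to TGC-1, at 0.0952 against a median of 1.003 over 157 others. It had 1333, 1377, 557 and 516 CPM in AAV9-DdCBE mice 17, 18, 25 and 26, against 307, 353.7, 708 and 355 in AAV9-GFP mice 5, 6, 14 and 19, so that mouse 14 was the highest AAV9-GFP heart for both rows. These are descriptions of 8 libraries that share depth and scaling, chosen from all rows for their likeness.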
